A study of Glycine max with 12 samples.

Results

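The genes described here are the 5 genes of the Rhg1 segment on soybean chromosome 18 and 3 genes elsewhere in the genome that encode alpha-SNAP, the protein made by the segment gene SNAP18. They were taken by identifier from the deposited gene counts: 8 of the 9 identifiers listed were found among the 47095 genes of the table, and all 8 had enough counts to be fitted. The other identifier, Glyma.14G054900, was not analysed here. The list was drawn up knowing that SNAP18 was lower in one of the genotypes, so all segment genes are described without a test, and tests are given only for the paralogs and for genes outside the list.

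Rhg1 is a resistance locus against the soybean cyst nematode, a parasite of roots, and in resistant soybeans its segment occurs as tandem repeats. Alpha-SNAP works with the ATPase NSF to take apart SNARE complexes after vesicles have fused, which frees the SNARE proteins for another round of vesicle traffic. The segment also holds a gene for an amino acid transporter and a gene for a protein of the wound-inducible WI12 type. RNA counts add up all copies and alleles of a gene, and the number of repeats was not measured here.

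RNA-seq was done on total RNA from soybean seeds of a stage labelled H3, which the labels do not explain. The libraries came from 3 transgenic genotypes, overexpressing the zinc finger gene GmZF351, the zinc finger gene GmZF392 or the nuclear factor Y subunit gene GmNFYA, and from the wild type Jack, with 3 libraries per genotype and 12 in all. The promoters of the transgenes are not given in the labels, and the libraries of each overexpressor share 1 code in their titles, so each may stand for 1 transgenic line. The labels do not say whether the numbered libraries came from separate plants. The spread behind the p-values is thus that of these libraries, and it may be technical.

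Libraries held 17809547 to 22652420 counted fragments, so that a count of 0 would allow up to 0.136 to 0.181 CPM (3 counts), for counting error only. Each overexpressed gene stood highest in its own genotype: 895 to 1009 CPM in GmZF351 overexpressors against 17.6 to 42.0 CPM elsewhere, 544.7 to 733.6 against 68.3 to 105.2 CPM for GmZF392, and 267.8 to 329.6 against 37.2 to 48.8 CPM for GmNFYA. All 9 seed markers paired with a gene were detected in every library. Their summed level was 16450 to 21430 CPM in GmZF351, 13090 to 17440 CPM in GmZF392 and 16340 to 16870 CPM in GmNFYA. It was 8900 to 11820 CPM in the wild type, so the sum stood higher in all 3 overexpressors. Most of the sum was SSTP-1, which in GmZF392 overlapped the wild type (7151 to 11240 against 7292 to 9164 CPM). Single markers differed by very unequal factors between the highest and the lowest of the 12 libraries, from 1.3-fold for the seed regulator LEC1-B to 34.2-fold for the glycinin gene GY4. The part of these marker levels in the results below was not tested. The marker CAB3 of green tissue was also detected, at 803.2 to 1676 CPM. In whole seeds, fewer cells of a type and less RNA per cell cannot be told apart.

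The bounds of the repeated unit were not determined here, and below the segment means only the stretch that holds the listed segment genes. These genes span 17.5 kb in the deposited coordinates (annotation Wm82.a4.v1, chromosome 18, 1634531 to 1652076). From one end to the other lie Glyma.18G022400 (listed as Glyma.18G022400.Wm82.a4.v1, 1634531 to 1637713, minus strand), SNAP18 (Glyma.18G022500.Wm82.a4.v1, 1639181 to 1643814, plus strand), Glyma.18G022551 (1644986 to 1646295, plus strand), Glyma.18G022600 (1646296 to 1647611, plus strand) and WI12 (Glyma.18G022700.Wm82.a4.v1, 1651098 to 1652076, plus strand). Glyma.18G022551 and Glyma.18G022600 adjoin each other, and a single RefSeq gene, LOC100778099, reaches over both, so fragments may be split between them. The RefSeq symbols used here give neither of them a role, and product names were not available. The values below are fragments over whole gene models, with exons summed.

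In wild-type seeds SNAP18 was by far the most abundant of the 8 genes. Per kilobase of exon it stood at 653 ± 113 FPKM (SD, n = 3), and WI12 and Glyma.18G022400 followed at 57.3 ± 8.3 and 57.2 ± 4.17 FPKM, a pair that did not differ beyond their spread. Next came SNAP11 at 19.5 ± 3.22 FPKM, SNAP09 at 8.15 ± 1.11 FPKM, SNAP02 at 7.33 ± 1.8 FPKM, Glyma.18G022600 at 5.35 ± 1.58 FPKM and Glyma.18G022551 at 1.89 ± 0.555 FPKM. The ranges of SNAP09, SNAP02 and Glyma.18G022600 ran into each other in this order, while the steps above SNAP11, below it and above Glyma.18G022551 were clear of overlap. Among all 47095 genes counted, SNAP18 ranked 28, 54 and 60 by FPKM in the 3 wild-type libraries.

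In GmNFYA overexpressors 3 of the segment genes lay wholly below every other genotype. SNAP18, Glyma.18G022400 and WI12 each stood at about the same fraction of wild type, between 2.8 and 3.04-fold lower. Glyma.18G022600 was 1.53-fold lower with overlapping ranges, and Glyma.18G022551 was too scarce to place. None of the 3 alpha-SNAP paralogs passed the test in any comparison.

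SNAP18 stood at 285.5, 291.1 and 320.4 CPM in the GmNFYA libraries, at 537.9, 864.9 and 724.4 CPM in GmZF351, at 729.5, 695.8 and 1022 CPM in GmZF392, and at 986.6, 830.3 and 696.8 CPM in the wild type. All 3 GmNFYA libraries lay below all 9 others, and the remaining genotypes ran into each other. The fitted difference between GmNFYA and wild type was log2 -1.49 (SE 0.21, 95% interval -1.94 to -1.03), a 2.8-fold lower level. Within the order by FPKM of all 47095 genes counted, SNAP18 then ranked 214, 384 and 360 in the GmNFYA libraries. It was thus still among the abundant transcripts of these seeds.

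Glyma.18G022400 carries the RefSeq synonym Rhg1-GmAAT, for an amino acid transporter. It stood at 41.6, 39.57 and 38.07 CPM in GmNFYA, 109.9, 126.8 and 131.4 CPM in GmZF351, 145.6, 150.5 and 144.9 CPM in GmZF392, and 129.2, 111.7 and 122.2 CPM in the wild type. Its GmNFYA libraries agreed closely and lay far below the rest. The difference between GmNFYA and wild type was log2 -1.61 (SE 0.13, interval -1.89 to -1.33), 3.04-fold lower. In GmZF392 its 3 libraries lay above the wild-type range, at log2 0.28 (SE 0.13).

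WI12 stood at 17.16, 17.77 and 20.51 CPM in GmNFYA, 39.42, 60.75 and 50.84 CPM in GmZF351, 67.54, 64.14 and 75.12 CPM in GmZF392, and 46.8, 62.02 and 59.37 CPM in the wild type. It followed the pattern of Glyma.18G022400: lowest in GmNFYA without overlap, and in GmZF392 just above the wild-type range. The differences from wild type were log2 -1.60 (SE 0.17, interval -1.97 to -1.23) in GmNFYA, 3.03-fold lower, and 0.30 (SE 0.17) in GmZF392. With the trend of each library with exon length removed, the GmNFYA difference of WI12 was -1.40.

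The 2 adjoining genes between SNAP18 and WI12 were scarce. Glyma.18G022600 stood at 5.277, 4.39 and 4.191 CPM in GmNFYA, 7.37, 6.261 and 9.914 CPM in GmZF351, 8.027, 8.481 and 10.38 CPM in GmZF392, and 8.782, 7.611 and 4.745 CPM in the wild type. One wild-type library, replicate 3, lay between GmNFYA libraries, and the difference of GmNFYA from wild type was log2 -0.61 (SE 0.24, interval -1.12 to -0.10). Without that library it was -0.83, and without wild-type replicate 1 it was -0.43. Glyma.18G022551 rested on 8 to 81 fragments a library, at 2.767, 1.673 and 0.7983 CPM in GmNFYA, 3.852, 0.4816 and 2.863 CPM in GmZF351, 2.824, 2.332 and 2.349 CPM in GmZF392, and 1.521, 1.495 and 2.428 CPM in the wild type. Its libraries scattered within every genotype except GmZF392, and the interval of its GmNFYA difference, -1.23 to 1.13, covers both a 2-fold higher and a 2-fold lower level. With both models counted as 1 gene, a choice made after seeing the data, the GmNFYA difference was -0.48 (SE 0.24).

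**Figure D1:**
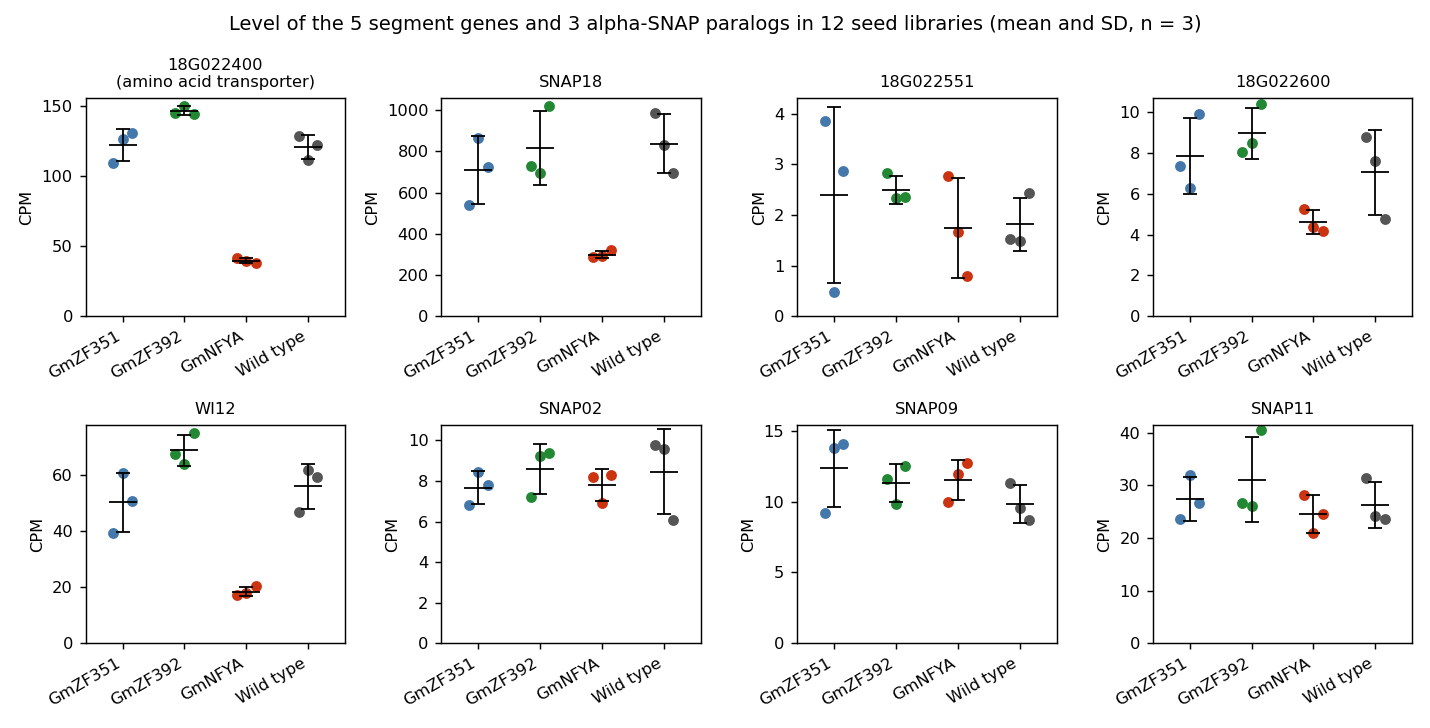
Level in CPM (vertical axes, linear and starting at 0) of each of the 8 genes in every library of the 3 overexpressors and the wild type (horizontal axis). Points are libraries, horizontal lines the mean and bars the SD of 3 libraries. The GmNFYA points lie apart and low for Glyma.18G022400, SNAP18 and WI12, while the paralogs SNAP02, SNAP09 and SNAP11 overlap in all 4 genotypes.

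Thus 3 of the 5 segment genes had GmNFYA libraries wholly below the wild type, and the same 3 were 2-fold or more lower. Over all 34252 genes fitted, 10.9% lay wholly below and 1.83% were 2-fold or more lower in that comparison. Because the list was chosen from this contrast, these shares are given for scale only. In GmZF351 none of the 5 segment genes was separate from the wild type, where 16.5% of all genes were, and their log2 differences ran from -0.24 for SNAP18 to 0.43 for Glyma.18G022551. In GmZF392 the 2 genes named above, Glyma.18G022400 and WI12, lay wholly above the wild type, as did 9.34% of all genes, while SNAP18 differed by log2 -0.04 (interval -0.49 to 0.41). The 3 overexpressors are set against the same wild-type libraries, so these comparisons are not independent of each other.

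The GmNFYA libraries also stood apart from the other overexpressors. These differences rest on the same low GmNFYA libraries, so they are not separate support. Their SEs come from the fit of all 12 libraries, the wild type included. Against GmZF351, the differences were log2 -1.63 (SE 0.13) for Glyma.18G022400, -1.25 (SE 0.21) for SNAP18 and -1.44 (SE 0.17) for WI12. Against GmZF392, they were -1.89 (SE 0.13), -1.45 (SE 0.21) and -1.90 (SE 0.17) for the same genes in that order. In both comparisons Glyma.18G022600 was lower in GmNFYA without overlap as well, by -0.77 (SE 0.24) and -0.95 (SE 0.24), so 4 of the 5 segment genes were separate. The share of all genes wholly lower was 8.63% against GmZF351 and 9.51% against GmZF392, again given for scale only. Between GmZF392 and GmZF351, Glyma.18G022400 differed by 0.26 (SE 0.13), SNAP18 by 0.20 (SE 0.21) and WI12 by 0.45 (SE 0.17).

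Against wild type the 3 abundant segment genes were lower in GmNFYA by similar factors, and their proportions to each other moved little in that comparison. The ratio of WI12 to Glyma.18G022400, both per kilobase of exon, was 1.01 ± 0.14 in GmNFYA, 0.882 ± 0.137 in GmZF351, 1.02 ± 0.101 in GmZF392 and 1.01 ± 0.211 in the wild type. SNAP18 held 12.4 ± 1.31 times the level of Glyma.18G022400 in GmNFYA, 9.47 ± 1.62 times in GmZF351, 9.17 ± 2.15 times in GmZF392 and 11.4 ± 1.76 times in the wild type. SNAP18 held 12.4 ± 0.401 times the level of WI12 in GmNFYA and 11.75 ± 3.8 times in the wild type. In GmZF351 and GmZF392 it held 10.7 ± 0.263 and 8.97 ± 1.22 times. All 3 ratios overlapped between GmNFYA and wild type. SNAP18 to WI12 was wholly higher in GmNFYA (11.92 to 12.69) than in GmZF351 (10.41 to 10.87) and GmZF392 (8.24 to 10.38). SNAP18 to Glyma.18G022400 was wholly higher in GmNFYA than in GmZF351 (11.32 to 13.88 against 8.07 to 11.25). The ratio of SNAP18 to Glyma.18G022600 was 67.3 ± 11.5 in GmNFYA and 126 ± 21.4 in the wild type, and these ranges did not overlap (55.5 to 78.4 against 111.9 to 150.6).

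The 3 paralogs encode alpha-SNAP from other chromosomes: SNAP02 (Glyma.02G260400.Wm82.a4.v1, chromosome 2, 46523647 to 46526185, plus strand), SNAP09 (Glyma.09G279400.Wm82.a4.v1, chromosome 9, 49855773 to 49860125, plus strand) and SNAP11 (Glyma.11G234500.Wm82.a4.v1, chromosome 11, 37853412 to 37858188, minus strand). They were chosen by family and not by their own values, though the list was drawn up with earlier results of these data known. Each was tested in the fit over all genes. None of the 3 rose or fell in GmNFYA seeds, where SNAP18 was lower (edgeR's quasi-likelihood test, adjusted p 0.664 to 0.857, 0 of 3 at an unadjusted p under 0.05). Over all genes 1.56% were called in that comparison, and 11.7% had an unadjusted p under 0.05. DESeq2's Wald test called none of the 3 either.

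SNAP11, the most abundant paralog, stood at 28.08, 20.91 and 24.45 CPM in GmNFYA, 23.68, 31.97 and 26.72 CPM in GmZF351, 26.71, 26.08 and 40.49 CPM in GmZF392, and 31.3, 24.1 and 23.5 CPM in the wild type. Its ranges overlapped in all 4 genotypes. The GmNFYA difference from wild type was log2 -0.10 (SE 0.20, interval -0.52 to 0.32, edgeR adjusted p = 0.857). Its lowest unadjusted p, 0.0998, came in GmNFYA against GmZF392 (log2 -0.34, adjusted p = 0.589), where replicate 3 of GmZF392 was the single high library.

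SNAP09 stood at 9.939, 11.92 and 12.72 CPM in GmNFYA, 9.177, 13.79 and 14.05 CPM in GmZF351, 11.6, 9.859 and 12.51 CPM in GmZF392, and 11.28, 9.513 and 8.662 CPM in the wild type. It was the one paralog with a mean above the wild type in every overexpressor, always with overlap. The differences from wild type were log2 0.23 (SE 0.19, interval -0.17 to 0.63, edgeR adjusted p = 0.664) in GmNFYA and 0.33 (SE 0.19, adjusted p = 0.557) in GmZF351.

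SNAP02, the scarcest, stood at 8.197, 6.899 and 8.282 CPM in GmNFYA, 6.8, 8.429 and 7.794 CPM in GmZF351, 7.185, 9.223 and 9.397 CPM in GmZF392, and 9.763, 9.559 and 6.069 CPM in the wild type. The wild-type libraries alone spanned more than the range of all the others. The GmNFYA difference was log2 -0.12 (SE 0.19, interval -0.54 to 0.30, edgeR adjusted p = 0.83).

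All 3 intervals in GmNFYA therefore lay inside a 2-fold change in either direction. The misses do not show that the paralogs were unchanged: the intervals leave room for a SNAP09 level up to log2 0.63 higher. The same test gave 0 of 3 paralogs in each of the other 5 comparisons, with 0 of 3 at an unadjusted p under 0.05 in each. The shares of all genes called there were 2.17% in GmZF351 and 2.2% in GmZF392 against wild type, 0.4% in GmZF392 against GmZF351, and 1.1% and 1.06% in GmNFYA against GmZF351 and GmZF392.

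**Figure D2:**
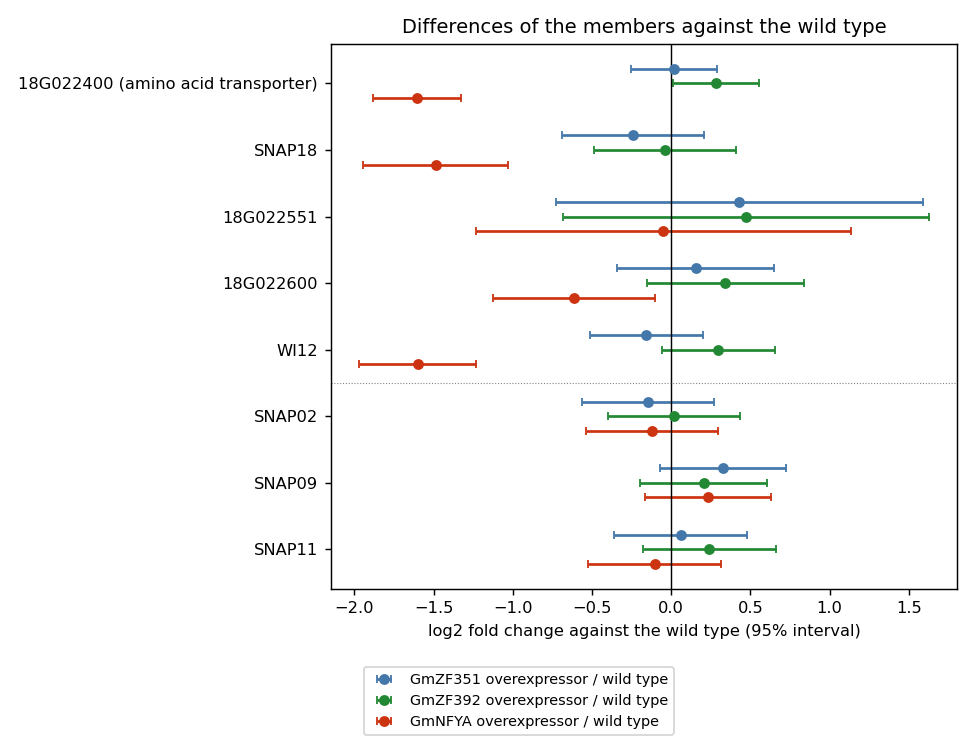
Fitted log2 fold change against the wild type (horizontal axis) of the 5 segment genes, above the dotted line, and the 3 paralogs, below it, for each overexpressor. Points are estimates and bars 95% intervals. The points of Glyma.18G022400, SNAP18 and WI12 in GmNFYA lie lowest, from log2 -1.61 to -1.49. The list was chosen from that contrast, so the intervals of the segment genes are no test. Every paralog interval includes 0.

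Fragments shared between similar alpha-SNAP copies could have been left uncounted or assigned to the wrong gene. The deposited header records no option for fragments with several alignments. Whether this touched the paralogs' counts was not tested.

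SNAP18 made up most of the RNA of the 4 alpha-SNAP genes analysed, in every genotype. Per kilobase of exon, its share of the 4 alpha-SNAP genes was 87.1 ± 0.961% in GmNFYA, 93.6 ± 0.489% in GmZF351, 94.1 ± 0.202% in GmZF392 and 94.9 ± 0.111% in the wild type. The 4 genes together reached 267.5 ± 15.6 FPKM in GmNFYA, 589.9 ± 134 FPKM in GmZF351, 675.7 ± 147 FPKM in GmZF392 and 688 ± 119 FPKM in the wild type. The sum in GmNFYA was thus 38.9% of the wild-type mean, and SNAP18 alone was at 35.7%. The identifier that was listed but not found among the genes counted is left out of these shares and sums.

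The paralogs analysed added little to this sum. Together they stood at 34.46 ± 2.69 FPKM in GmNFYA, 37.2 ± 5.75 FPKM in GmZF351, 39.9 ± 7.48 FPKM in GmZF392 and 34.97 ± 5.64 FPKM in the wild type, with overlap throughout. Against a SNAP18 level lower by 420 FPKM in GmNFYA than in wild type, the paralog sum differed by -0.517 FPKM. The ratio of SNAP18 to SNAP11 was 13.04 ± 2.08 in GmNFYA, 27.0 ± 2.65 in GmZF351, 27.8 ± 1.12 in GmZF392 and 33.5 ± 2.55 in the wild type. In the zinc finger overexpressors this ratio lay below the wild-type range too (23.9 to 28.5 in GmZF351 and 26.5 to 28.7 in GmZF392, against 31.2 to 36.2 in the wild type). Since it holds SNAP18, it was not tested.

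**Figure D3:**
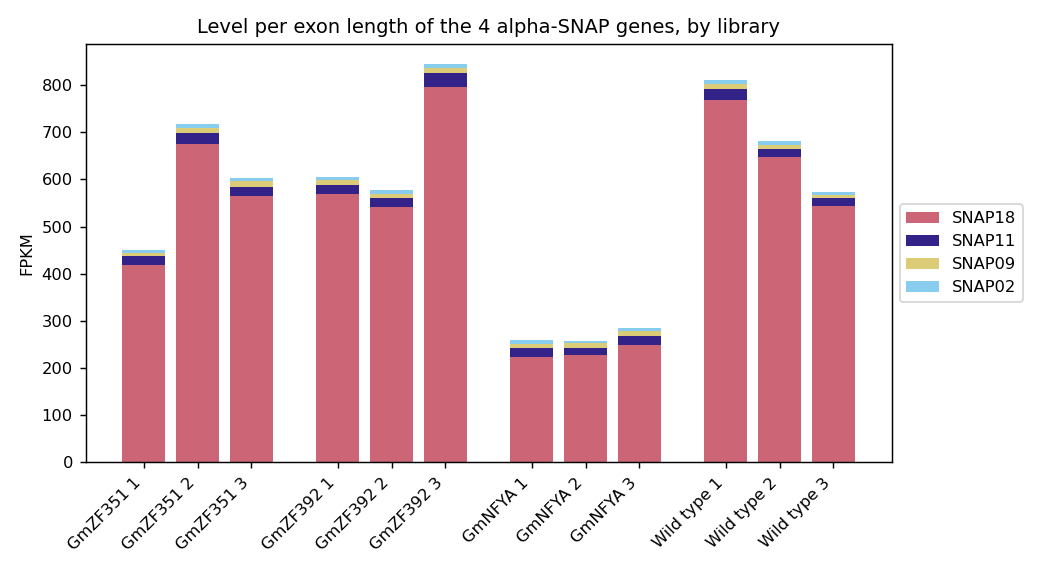
Stacked level in FPKM (vertical axis, starting at 0) of SNAP18, SNAP11, SNAP09 and SNAP02 in each of the 12 libraries. The 3 GmNFYA bars are lower through their SNAP18 part, with sums of 258.7, 258.2 and 285.5 FPKM against 573 to 810 FPKM in the wild type, and the paralog parts together run from 29.9 to 48.5 FPKM over the 12 libraries.

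The genes around the segment were set beside it to see how far along the chromosome levels differed. Of the 20 genes on either side in the deposited table, 27 of 40 had enough counts for the test, and none was called in GmNFYA against wild type by edgeR (2 of 27 at an unadjusted p under 0.05, beside 11.7% of all genes). DESeq2's Wald test called none of them there. Their log2 differences ran from -0.90 to 0.37, with a median of -0.08 beside -0.01 for all genes, and none was 2-fold lower. By overlap of libraries, 7 of the 27 (25.9%) were separate from the wild type in either direction, beside 21.9% of all genes. The closest tested genes were Glyma.18G022300, starting 9.6 kb before the SNAP18 start, at log2 -0.46 (edgeR adjusted p = 0.491), and Glyma.18G022800, starting 25.3 kb beyond it, at -0.08 (adjusted p = 0.901).

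In GmZF351 none of the 27 neighbours was called (5 at an unadjusted p under 0.05, beside 11.8% of all genes), and DESeq2 called none of them. One of them, TGA23 (Glyma.18G020900), had a difference beyond 2-fold lower there, at log2 -1.24 (edgeR adjusted p = 0.319). By overlap, 10 of the 27 neighbours (37%) were separate from the wild type in GmZF351, beside 16.5% of all genes. The same was so for 9 (33.3%) in GmZF392, beside 17.9% of all genes. In GmZF392 1 was called, and 7 of the 27 had an unadjusted p under 0.05 by edgeR, beside 11.8% of all genes. The called gene, Glyma.18G022000, LOC100809814, rose to 1.14 ± 0.34 CPM, against 0.0997 ± 0.00997 CPM in the wild type (edgeR adjusted p = 0.0102). The wild-type level lies under the limit that 3 counts set, and the call was lost without any 1 of the 3 wild-type libraries. Over a wider span of 1 Mb on each side, 162 genes were tested. There 1 rose in GmNFYA, 1 in GmZF351 and 4 in GmZF392, and none fell. The shares of all genes that rose were 0.966%, 1.13% and 1.67% in these comparisons, so the counts near the segment were close to those shares. The gene in GmNFYA was Glyma.18G026900, LOC100787718, at 5.54 ± 0.268 CPM, against 2.01 ± 0.682 CPM in the wild type (log2 1.46, edgeR adjusted p = 0.00301). The gene in GmZF351 was Glyma.18G029300, LOC100802892, at 4.73 ± 0.462 CPM, against 1.46 ± 0.484 CPM in the wild type (adjusted p = 0.01). In GmZF392 both of these rose, with Glyma.18G022000 and Glyma.18G013800.

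**Figure D4:**
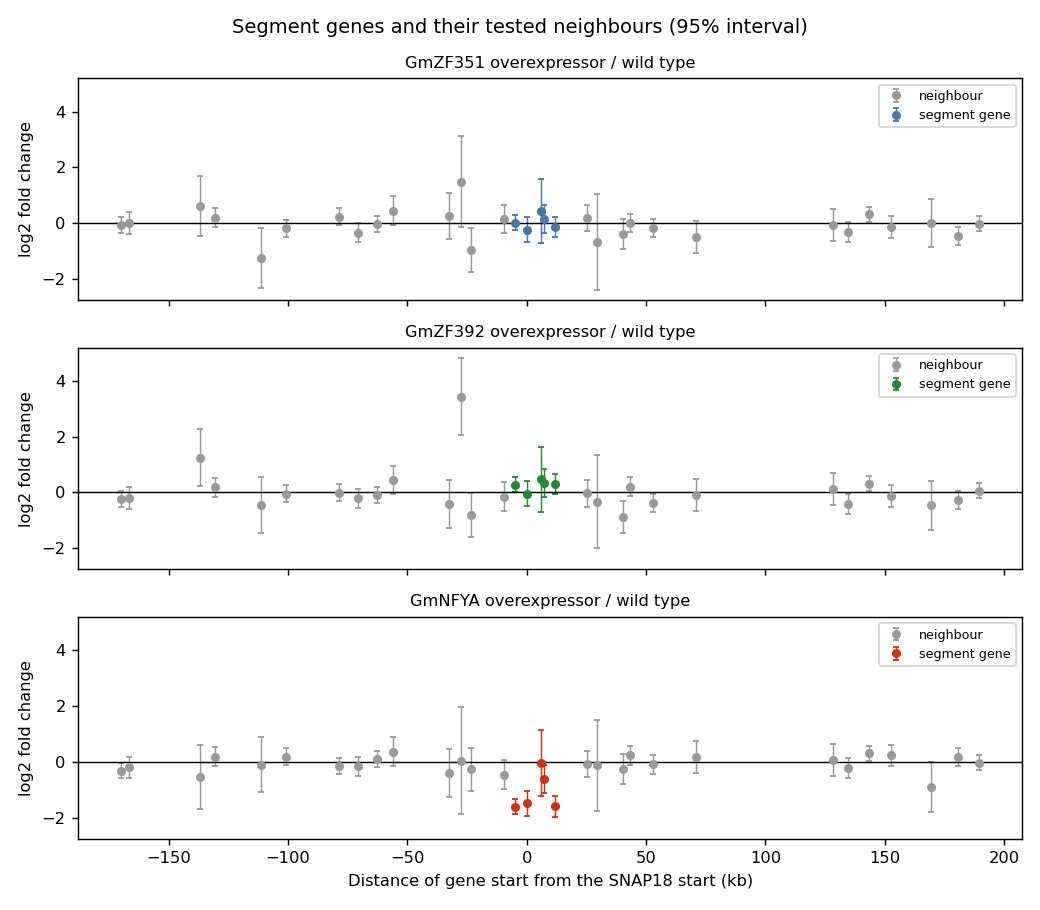
Fitted log2 fold change against the wild type (vertical axis) by the distance of each gene's start from the SNAP18 start in kb (horizontal axis), for the segment genes in colour and the 27 tested neighbours in grey. Bars are 95% intervals, and panels are the 3 overexpressors. In the GmNFYA panel 3 coloured points lie near log2 -1.5, and the grey points on both sides lie between -0.90 and 0.37.

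The locus that RefSeq names RHG1 is a different gene, Glyma.18G023500, a receptor-like kinase gene mapped near the resistance locus. It starts 71 kb beyond SNAP18 and stood at 4.67 ± 0.546 CPM in GmNFYA and 4.11 ± 0.295 CPM in the wild type (log2 0.19, edgeR adjusted p = 0.811). At Rhg4, the other main cyst nematode resistance locus, the serine hydroxymethyltransferase gene SHMT (Glyma.08G108900) stood at 313.8 ± 36.7 CPM in GmNFYA and 232.8 ± 25.4 CPM in the wild type (log2 0.43, adjusted p = 0.262). RHG4 (Glyma.08G107700) differed by log2 0.31 (adjusted p = 0.617). Neither they nor RHG1 passed the test in any overexpressor against wild type, and only SHMT had an unadjusted p under 0.05, in GmNFYA.

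Alpha-SNAP acts on SNARE proteins, and only 4 genes could be picked out by a RefSeq symbol of SNARE type: GOS12, VAMP721D, SNAP-1 and SYP24. Product names were not available, so it was not checked that each of the 4 encodes a SNARE protein. None was called in any overexpressor against the wild type by edgeR, and 1 of 4 had an unadjusted p under 0.05 in each comparison, beside 11.7% to 11.8% of all genes. In GmZF351 DESeq2's Wald test called 1 of them. In GmNFYA the log2 differences were 0.00 for GOS12, -0.23 for VAMP721D (adjusted p = 0.566) and -0.09 for SNAP-1. SYP24 stood at 0.718 ± 0.147 CPM in GmNFYA and 0.177 ± 0.134 CPM in the wild type (adjusted p = 0.122), which is near the limit set by 3 counts. Between overexpressors, VAMP721D was lower in GmNFYA, at 58.1 ± 4.58 CPM, than in GmZF351, at 93.5 ± 10.9 CPM (log2 -0.69, SE 0.14, edgeR adjusted p = 0.0362). Over all genes 1.1% were called in that comparison. The wild type, at 68.3 ± 5.66 CPM, and GmZF392, at 74.9 ± 10.2 CPM, lay between. GmZF351 differed from wild type by log2 0.45 (edgeR adjusted p = 0.164). The call between GmNFYA and GmZF351 was lost in the fit of these 2 genotypes alone (adjusted p = 0.16). It was also lost without any 1 library of either except GmZF351 replicate 1 (adjusted p 0.0348 to 0.155 over the 6).

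The genes whose log2 CPM followed SNAP18 most closely over the 12 libraries lay mostly elsewhere. The 5 with the highest Pearson correlation were Glyma.17G042100 (0.975), Glyma.08G077200 (0.973), Glyma.16G117900 (0.970), Glyma.06G013400 (0.968) and Glyma.02G032300 (0.958). The 3 with the lowest were Glyma.04G057900 (-0.980), Glyma.02G084350 (-0.967) and Glyma.08G314700 (-0.959). These values rest largely on the low GmNFYA libraries: Glyma.16G117900 stood at 6.19 ± 0.842 CPM in GmNFYA and 27.1 ± 2.71 CPM in the wild type, and Glyma.02G084350 at 24.3 ± 2.32 CPM in GmNFYA and 1.1 ± 0.413 CPM in the wild type. Among all 34251 other genes, WI12 ranked 12 and Glyma.18G022400 ranked 14 by this likeness. The paralogs ranked at 3391 (SNAP11), 7649 (SNAP02) and 15335 (SNAP09). These ranks restate the GmNFYA contrast and did not hold without it: over the 9 libraries of the other genotypes, the correlation with SNAP18 was 0.796 for SNAP11, 0.71 for SNAP02 and 0.495 for SNAP09, and 0.493 for WI12 and 0.332 for Glyma.18G022400. These are descriptions over few libraries, which share their scaling. Of the 50 genes most like SNAP18 outside the list, 2 lay on chromosome 18 and 0 within 1 Mb of the segment.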

How the data were processed

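RNA from 12 soybean seed libraries (4 genotypes, 3 libraries each) was compared. The authors deposited 1 table of raw counts. Per the file headers, the counts were made with featureCounts 2.0.1 from paired-end fragments, exons summed by gene, on the annotation Gmax_508_Wm82.a4.v1, together with exon lengths. No strand, multimapping or overlap option is recorded there. HISAT2 and DESeq2 are named without versions, per the submitters' processing notes, and the reads were not analysed here. From these counts, CPM was computed with TMM factors, and FPKM as CPM per kilobase of exon. Differences were fitted in R 4.3.3 with edgeR 4.0.16 (robust quasi-likelihood F-test, minimum count 10, minimum total 15), all 12 libraries in 1 fit, 34252 genes, and a Benjamini-Hochberg threshold of 0.05. An exact test of 3 against 3 libraries cannot go below p = 0.1. "Rose", "fell" and "called" refer to this threshold. Samples were grouped by the genotype label. The test was checked on simulated counts.

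Gene symbols are those of RefSeq genes of Glycine_max_v4.0 paired with the deposited gene by span, an overlap of 50% or more of their joint length (38292 genes, 81.3%). The members and lists were chosen with earlier results of these data known. Named genes are all members, the overexpressed genes, the 5 genes most like and the 3 least like SNAP18 by Pearson correlation of log2 CPM (prior count 2), and called members of the neighbour, SNARE and resistance lists. RHG1, RHG4, SHMT, GOS12, VAMP721D, SNAP-1, SYP24, TGA23, the nearest neighbours and called genes within 1 Mb are named outside this rule, after their values were seen; of the SNARE and resistance genes, VAMP721D alone was called, between 2 overexpressors. Seed and green-tissue markers without a paired symbol were left out. Alternatives were other size factors, no filter, DESeq2 1.42.0, fits of 2 genotypes, a replicate block, exon-length offsets and leaving out each library. No same-genotype libraries were duplicates. Same-numbered libraries of different genotypes deviated with correlations of -0.498 to 0.418, and no comparison had every pair above 0.1.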

Additional observations from a re-analysis of the deposited data

How the results depend on the processing

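The GmNFYA differences of the segment genes kept their sign for Glyma.18G022400, SNAP18, Glyma.18G022600 and WI12 under every alternative run, while that of Glyma.18G022551 changed sign under 3. WI12 stood at log2 -1.40 with exon-length offsets. Leaving out 1 library gave -1.66 to -1.56 for Glyma.18G022400, -1.60 to -1.35 for SNAP18, -1.72 to -1.52 for WI12, -0.83 to -0.43 for Glyma.18G022600 and -0.54 to 0.30 for Glyma.18G022551. No paralog passed the threshold in any of 216 alternative values for 18 results, and the sign changed in 17. Genes called with DESeq2's Wald test numbered 1012 in GmNFYA, 1296 in GmZF351 and 1194 in GmZF392 against wild type, 359 in GmZF392 against GmZF351, and 954 and 705 in GmNFYA against GmZF351 and GmZF392. With exon-length offsets these counts were 823, 1331, 1188, 259, 765 and 557. With only the genotypes compared in the fit, 368 were called in GmZF351 against wild type, 69 in GmZF392 against GmZF351 and 123 in GmNFYA against GmZF351, from fewer samples. Leaving out 1 library left 300 to 385 in GmNFYA, 392 to 575 in GmZF351 and 448 to 606 in GmZF392 against wild type, 64 to 112 in GmZF392 against GmZF351, and 163 to 368 and 198 to 273 in GmNFYA against GmZF351 and GmZF392, again from fewer samples. Of the neighbours, 1 was called in GmZF351 with exon-length offsets, and 0 to 1 in GmZF392 without 1 library. Of the SNARE genes, 1 was called in GmZF351 with DESeq2 and 1 with exon-length offsets. The cause of the changes under DESeq2 and exon-length offsets was not tested. With the replicate number as a block, 510 genes were called in GmNFYA, 645 in GmZF351 and 659 in GmZF392 against wild type, 117 in GmZF392 against GmZF351, and 350 and 326 in GmNFYA against GmZF351 and GmZF392, and no paralog was. The labels do not say whether the numbers pair the samples. VAMP721D in GmNFYA against GmZF351 ran from log2 -0.76 to -0.60 without 1 library and kept its sign under all alternatives. With SNAP11 added to SNAP18, a choice made after seeing the data, the GmNFYA difference was -1.42, which bears on SNAP18 alone because SNAP11 is a small part of the sum. Glyma.18G022551 had 8 to 81 fragments a library, and the interval of its GmNFYA difference, -1.23 to 1.13, holds the scatter between libraries as well as counting error.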

Other observations

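Along all chromosomes, 34093 overlapping stretches of 5 consecutive fitted genes were counted. In GmNFYA against wild type, 13 of them held 3 or more genes that were 2-fold or more lower, and 1 of these 13 lay within the Rhg1 segment. The corresponding number was 9 in GmZF351 and 5 in GmZF392, with 0 in the segment. Stretches with 3 or more genes 2-fold or more higher numbered 34 in GmNFYA, 21 in GmZF351 and 36 in GmZF392, again with 0 in the segment. Overlapping stretches can count 1 place more than once, so these are not numbers of separate places. The 13 stretches in GmNFYA held 18 such lower genes in all, 3 of them in the segment. These counts carry no test.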
